A study of Mus musculus with 6 samples.

Results

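The mitochondrial solute carriers of the *Slc25* family were examined in activated WT and hnRNPL-deficient B cells. hnRNPL is a nuclear RNA-binding protein best known as a regulator of splicing. Members were taken by name, as every gene called *Slc25a* followed by a number, which gave 47 of the 55421 genes in the deposited table. Of these, 40 had a mean of at least 10 normalized counts over the 6 libraries and were tested, and the other 7 were too low for a test. Family members that carry other names, such as the uncoupling protein gene *Ucp2*, were not counted as members and are described with other transport genes at the end.

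The 6 libraries came from splenic B cells of 3 *CD21-cre* mice (WT) and 3 hnRNPL F/F *CD21-cre* mice (hnRNPL-deficient), 1 library per mouse. The cells were cultured for 24 h with 5 μg/ml of LPS, a bacterial activator of B cells, plus the cytokine IL-4 at 5 ng/ml, and GFP+ cells were then sorted. Per the study's methods, both genotypes also carried the Rosa mT/mG reporter, in which cre activity switches the expressed membrane protein from tdTomato to GFP, and mice of both sexes on a C57BL6/J background were used from the age of 6 weeks. The sex of the mouse behind each library was not given. *CD21-cre* acts mostly in mature peripheral B cells but also in some other tissues during development, so the mutant mice are not deficient in B cells alone. GFP marks a cell in which cre has acted, and not the loss of hnRNPL itself. P-values measure the spread between these mice, together with that of their cultures and libraries.

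*Hnrnpl* had 24371, 25580 and 24174 normalized counts in WT mice against 2178, 1519 and 1297 in hnRNPL-deficient mice, a log2 fold change of -3.93 (SE 0.173). Reads on genes ranged from 40395186, in hnRNPL-deficient library 3, to 75180749, and carriers took 0.156% to 0.177% of them. The 6 B cell markers summed to between 274249 and 350783 normalized counts in WT libraries, compared with between 266462 and 312659 in hnRNPL-deficient cells, and the 6 T cell markers to at most 11.7 in any library. The 6 myeloid markers summed to 260.0 to 331.9 in WT against 1239 to 1382 in hnRNPL-deficient cells, of which *Adgre1* alone made 236 to 315 and 1217 to 1369, whereas *Lyz2*, *Cd14*, *Csf1r* and *Ly6g* each stayed at or below 6.85 in every library. The 6 erythroid markers summed to 16.1 to 33.7 against 52.3 to 83.8 (*Alas2* and *Slc4a1* at most 4.11), the 4 NK cell markers to 26 to 33.7 against 46.4 to 67.6 (*Ncr1* at 0) and the 5 plasma cell markers to 33957 to 39571 against 33296 to 36361. *Adgre1*, *Hbb-bt* and *Prf1* passed the test as higher and *Jchain* as lower. The part of these shifts in the carrier results was not tested.

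SLC25 proteins sit in the inner mitochondrial membrane, with a few exceptions in the outer membrane or in peroxisomes, and exchange metabolites, nucleotides, cofactors and ions between the cytosol and the matrix. They bring in ADP and phosphate and send out ATP, move reducing equivalents through aspartate and malate, and supply the matrix with the nucleotides and cofactors from which mitochondrial DNA, RNA and enzymes are made. B cells activated by LPS and IL-4 enlarge, raise their mitochondrial activity and begin to divide, all of which draws on these exchanges.

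The carriers differed by several orders of magnitude in level. To compare genes, normalized counts were divided by the length of all exons of the gene in kilobases. This length joins the exons of every annotated transcript, whether or not these cells make it. Levels and shares compared between genes therefore depend on the annotation too. In WT cells 6 members stood at 1000 or more normalized counts per kb, 22 between 100 and 1000, 10 between 10 and 100, and 9 under 10. The highest was *Slc25a5*, the ADP/ATP carrier of dividing cells, at 15811 normalized counts per kb. The next 4 were *Slc25a3*, the phosphate and copper carrier, at 2643, *Slc25a1*, the citrate carrier, at 1643, *Slc25a4*, the ADP/ATP carrier of heart and muscle, at 1422, and *Slc25a39*, a glutathione carrier, at 1312. *Slc25a5* and *Slc25a3* alone held 40.3% of all normalized counts on carriers in WT against 36.6% in hnRNPL-deficient cells. In bulk RNA, fewer cells expressing a gene and less of its RNA per cell cannot be told apart.

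**Figure D1:**
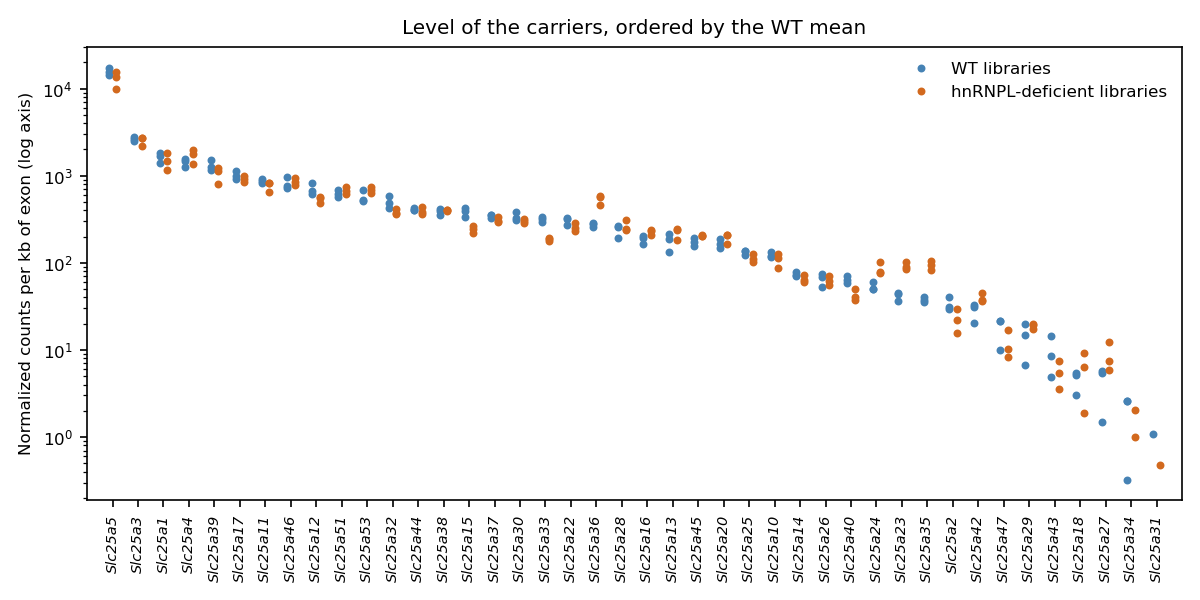
Level of the carriers in normalized counts per kb of exon, on a log axis, ordered from the highest WT mean to the lowest, with WT libraries in blue and hnRNPL-deficient libraries in orange. Values of 0 cannot be drawn on a log axis, and the 4 carriers with 0 reads in WT are left out. *Slc25a5* stands apart at 15811 in WT, the bulk of the family lies between 10 and 1000, and the carriers that passed the test are spread over the middle and lower part of the order.

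The 7 members that could not be tested were *Slc25a18*, *Slc25a21*, *Slc25a31*, *Slc25a34*, *Slc25a41*, *Slc25a48* and *Slc25a54*, with a mean over the 6 libraries of at most 9.94 normalized counts. *Slc25a21*, *Slc25a41* and *Slc25a48* had 0 reads in all 6 libraries, which at these depths allows up to 2.29 to 4.11 normalized counts per library. *Slc25a31* is the ADP/ATP carrier of testis, and it had 0.774 normalized counts on average in WT against 0.337 in hnRNPL-deficient cells.

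Between the genotypes, 4 of the 40 tested carriers were higher in hnRNPL-deficient cells (*Slc25a35*, *Slc25a23*, *Slc25a36* and *Slc25a24*) and 3 were lower (*Slc25a33*, *Slc25a15* and *Slc25a40*), by the criteria of a limma adjusted p (Benjamini-Hochberg) below 0.1 together with a change of 1.5-fold or more. Higher calls made up 10% of the carriers against 7.28% of all 17640 tested genes, and lower calls 7.5% against 4.08%. In both directions together this is 17.5% of carriers and 11.4% of all genes. On the adjusted p alone, the same 7 carriers passed, or 17.5% of them, against 18% of all genes. The 3 values of each genotype did not overlap for 9 carriers that were higher (22.5%, against 17.7% of all genes) and for 6 that were lower (15%, against 16.3%). On the adjusted p alone and on overlap, the shares of carriers thus lay near those of all tested genes.

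The median change of the family lay close to that of all genes. The median log2 fold change of the 40 carriers was -0.07 and that of all tested genes -0.03, and 18 carriers had a higher and 22 a lower mean log2 value in hnRNPL-deficient cells. The median size of the change, regardless of sign, was 0.27 on the log2 scale for carriers and 0.28 for all genes. In 14 of the 40 carriers the change was under 0.2 on that scale. Of the 7 called carriers, 3 ranked above the middle of the family by WT level per kb (*Slc25a15*, *Slc25a33* and *Slc25a36*), and none was among the 15 highest.

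**Figure D2:**
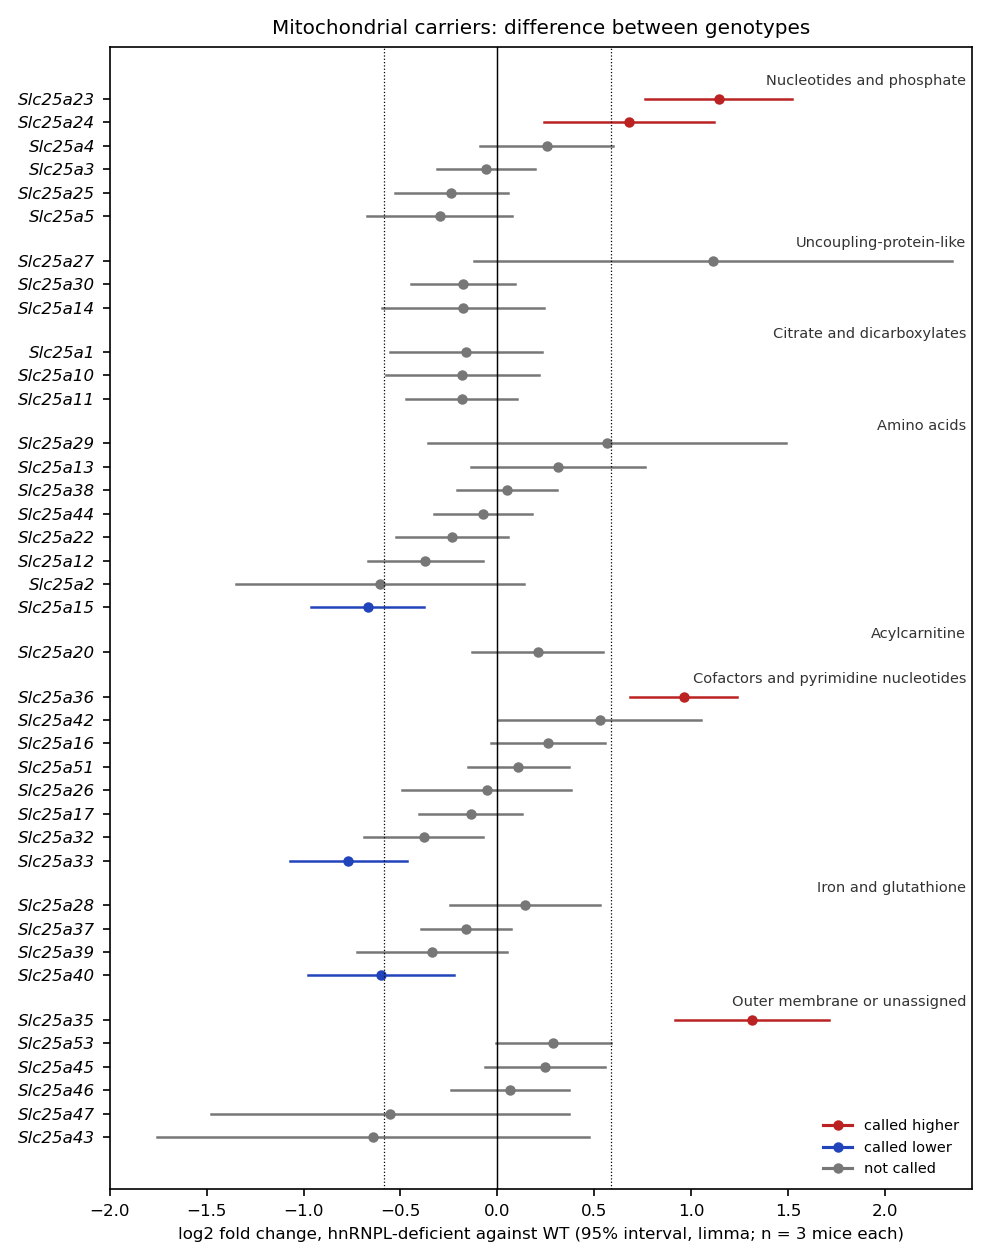
Log2 fold change of tested carriers, hnRNPL-deficient against WT, with the 95% interval from limma (n = 3 mice each), grouped by transported substrate. Dotted lines mark a 1.5-fold change, red and blue mark carriers called higher and lower, and grey the rest. The called carriers run from -0.77 for *Slc25a33* to 1.31 for *Slc25a35*, and both directions occur within the group of cofactor and pyrimidine nucleotide carriers.

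The group of cofactor and pyrimidine nucleotide carriers held 9 members, all of them tested, of which 1 was called higher and 1 lower. Of all tested genes, 7.28% were called higher and 4.08% lower, and no substrate group was tested against these shares. The 2 called genes were the carriers that bring pyrimidine nucleotides into the matrix for the synthesis of mitochondrial DNA and RNA. *Slc25a36* (ENSMUSG00000032449, chromosome 9, 97074961 to 97111157, minus strand, GRCm38) had 2742, 2711 and 2482 normalized counts in WT libraries against 5628, 4379 and 5535 in hnRNPL-deficient ones. Every hnRNPL-deficient library was thus well above every WT library. Its mean rose from 2645 ± 142 to 5181 ± 696 (SD, n = 3), a log2 fold change of 0.96 (SE 0.121, adjusted p = 0.00256). *Slc25a33* (ENSMUSG00000028982, chromosome 4, 149744036 to 149774277, minus strand) had 629.0, 593.1 and 559.8 normalized counts in WT against 350.7, 360.4 and 333.1 in hnRNPL-deficient libraries. All 3 hnRNPL-deficient libraries lay below all 3 WT libraries, with little spread on either side. Its mean fell from 594.0 ± 34.6 to 348.1 ± 13.9 (SD, n = 3), a log2 fold change of -0.77 (SE 0.133, adjusted p = 0.00940).

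Per kb of exon, the pair stood close to even in WT, at 315 normalized counts per kb for *Slc25a33* and 276 for *Slc25a36*. This rests on exon lengths of 1887 bases for *Slc25a33*, with 1 annotated transcript, and 9594 for *Slc25a36*, with 9. Before that division the WT means were 594.0 and 2645 normalized counts, so the evenness and the size of the shares depend on these lengths. *Slc25a36* made up 46.2%, 47.3% and 46.6% of the pair's summed level in WT against 75.9%, 70.5% and 76.6% in hnRNPL-deficient libraries. The share went from 46.7% ± 0.594 to 74.3% ± 3.34 (SD, n = 3), with no overlap. The sum of both was 590.4 ± 32.4 normalized counts per kb in WT against 724 ± 67.4 in hnRNPL-deficient cells. These shares rest on the same values as the calls of both genes and were chosen for display after the values were seen.

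The proximal promoters of this pair and of *Slc25a15*, described with the amino acid carriers, are shown because their genes were called and their windows were the ones among the called carriers that hold an E-box. Each is the 250 bases before and 50 bases after an annotated RefSeq start site, 5′ to 3′ on the strand of the gene (GRCm38.p6), with motif letters in capitals. The windows are chr4:149774218-149774517, chr9:97110992-97111291 and chr8:22398228-22398527, all on the minus strand. *Slc25a15* has a second window, chr8:22398572-22398871, which is not shown and holds GC boxes but no E-box. That second window spans the annotated 5′ end of the gene at 22398597, whereas the window shown lies downstream of it, inside the gene.
Slc25a33: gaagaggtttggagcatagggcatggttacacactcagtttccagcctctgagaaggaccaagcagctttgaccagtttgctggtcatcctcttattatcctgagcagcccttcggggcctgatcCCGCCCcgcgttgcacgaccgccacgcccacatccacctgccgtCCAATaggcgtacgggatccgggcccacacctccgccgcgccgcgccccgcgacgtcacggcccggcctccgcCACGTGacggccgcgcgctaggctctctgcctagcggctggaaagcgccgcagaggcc
Slc25a36: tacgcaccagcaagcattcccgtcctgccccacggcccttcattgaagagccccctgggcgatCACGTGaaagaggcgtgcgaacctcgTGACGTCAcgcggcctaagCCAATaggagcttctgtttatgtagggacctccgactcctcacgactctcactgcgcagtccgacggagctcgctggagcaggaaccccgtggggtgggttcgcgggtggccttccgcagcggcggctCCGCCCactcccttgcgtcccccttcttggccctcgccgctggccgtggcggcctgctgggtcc
Slc25a15: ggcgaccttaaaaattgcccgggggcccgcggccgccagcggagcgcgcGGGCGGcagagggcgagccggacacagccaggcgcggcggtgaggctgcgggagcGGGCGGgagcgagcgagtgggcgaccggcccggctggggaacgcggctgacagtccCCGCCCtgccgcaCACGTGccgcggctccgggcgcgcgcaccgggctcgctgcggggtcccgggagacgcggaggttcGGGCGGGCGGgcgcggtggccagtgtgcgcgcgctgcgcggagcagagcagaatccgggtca

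In these windows the E-box CACGTG lies at -8 from the start site in *Slc25a33* and at -187 in *Slc25a36*. In *Slc25a15* it lies at -77 from the downstream one of its start sites. *Slc25a36* also has the cyclic AMP response element TGACGTCA at -161 and CCAAT at -142, and *Slc25a33* has CCAAT at -81. The letters of 5 motifs were searched on both strands, namely the E-box CACGTG, the cyclic AMP response element TGACGTCA, the CCAAT box, the GC box GGGCGG and the E2F site TTTCGCGC, none of which contains another. The table of promoters held 46 windows for 36 of the 47 carriers. It held none for *Slc25a35*. CACGTG was present in 8 of the 46 carrier windows, belonging to 7 carriers, or 17.4%, against 7.15% of all 32851 windows. TGACGTCA was in 4.35% against 1.79%, CCAAT in 47.8% against 37.4%, GGGCGG in 82.6% against 35.7%, and TTTCGCGC in 0 windows against 0.323%. Median GC content was 59.3% in carrier windows and 52.7% in all windows. Carriers called in opposite directions, *Slc25a36* and *Slc25a33*, both hold CACGTG and CCAAT, and a match of letters does not show binding.

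None of the other 7 cofactor carriers was called by limma, edgeR or DESeq2. *Slc25a32* and *Slc25a42* had an unadjusted p under 0.05 in limma. *Slc25a32*, which carries folate and FAD, had 3054 ± 505 normalized counts in WT against 2330 ± 179 in hnRNPL-deficient cells (log2 fold change -0.38, adjusted p = 0.111), and the groups did not overlap. *Slc25a42*, which carries coenzyme A, had 167 ± 40.6 and 237 ± 25.9 (0.53, adjusted p = 0.179), also without overlap. The peroxisomal carrier *Slc25a17*, the highest of the group per kb at 1016 normalized counts in WT, had a log2 fold change of -0.14 (adjusted p = 0.482). Values were 0.11 for *Slc25a51*, the NAD+ carrier, -0.05 for *Slc25a26*, the S-adenosylmethionine carrier, and 0.26 for *Slc25a16*. *Slc25a52*, the close relative of *Slc25a51*, was not analysed here.

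Among the 8 carriers of adenine nucleotides and phosphate, 6 were tested, and limma called 2 higher and 0 lower. The counts were the same at an unadjusted p under 0.05, and edgeR and DESeq2 called the same 2. Of all 17640 tested genes, 7.28% were called higher and 4.08% lower, and 2547 and 2283 passed that unadjusted p. Both called carriers belong to the ATP-Mg/phosphate carriers. These are regulated by calcium through EF-hands on the cytosolic side and set the size of the adenine nucleotide pool in the matrix. *Slc25a23* (ENSMUSG00000046329, chromosome 17, 57043711 to 57059863, minus strand) had 232.1, 191.1 and 238.6 normalized counts in WT against 545.4, 473.5 and 444.1 in hnRNPL-deficient libraries. The lowest hnRNPL-deficient library was far above the highest WT library. Its mean rose from 220.6 ± 25.8 to 487.7 ± 52.1 (SD, n = 3), a log2 fold change of 1.14 (SE 0.167, adjusted p = 0.00469). *Slc25a24* (ENSMUSG00000040322, chromosome 3, 109123149 to 109168457, plus strand) had 171.8, 170.3 and 205.7 normalized counts in WT against 354.3, 270.6 and 259.1 in hnRNPL-deficient libraries. The groups did not overlap, but hnRNPL-deficient library 1 stood above the other two. The mean rose from 182.6 ± 20 to 294.6 ± 52 (SD, n = 3), a log2 fold change of 0.68 (SE 0.192, adjusted p = 0.0560). This call was lost when any library except hnRNPL-deficient library 3 was left out, with adjusted p-values from 0.103 (without hnRNPL-deficient library 2) to 0.162 (without WT library 2).

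The third expressed ATP-Mg/phosphate carrier, *Slc25a25*, was the highest of them in WT but did not pass the test, with 1043 ± 69.4 normalized counts in WT against 887.3 ± 97.6 in hnRNPL-deficient cells (log2 fold change -0.24, adjusted p = 0.273). Per kb of exon, *Slc25a25* made up 58.3% ± 2.87 of the summed level of the 3 genes in WT against 38.9% ± 3.80 in hnRNPL-deficient cells (SD, n = 3). *Slc25a23* went from 18.3% ± 2.07 to 31.7% ± 1.09 and *Slc25a24* from 23.3% ± 1.25 to 29.4% ± 2.84. The sum of the 3 was 227.6 ± 13.7 normalized counts per kb in WT against 290.9 ± 29.1 in hnRNPL-deficient cells. As for the pyrimidine pair, these shares were chosen after the values were seen.

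The ADP/ATP carriers, through which mitochondrial ATP reaches the cytosol, did not pass the test. *Slc25a5* had 25825, 28681 and 23567 normalized counts in WT libraries against 25364, 22609 and 16403 in hnRNPL-deficient ones. The groups overlapped, and hnRNPL-deficient library 3 was the lowest. The log2 fold change was -0.30 (SE 0.164, 95% interval -0.67 to 0.08, adjusted p = 0.282). A pseudogene copy, *Slc25a5-ps*, was counted apart at 117 normalized counts in WT against 101 in hnRNPL-deficient cells, and reads of near-identical copies of *Slc25a5* could have been lost or exchanged. *Slc25a4* had 3346 ± 346 normalized counts in WT against 4023 ± 731 in hnRNPL-deficient cells (0.25, adjusted p = 0.316). Per kb of exon, *Slc25a4* was 8.26% ± 0.618 of the pair in WT against 11.6% ± 0.370 in hnRNPL-deficient cells. The phosphate carrier *Slc25a3* had 14667 ± 882 and 14133 ± 1565 (log2 fold change -0.06, 95% interval -0.31 to 0.19).

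Of the 9 amino acid carriers, 8 were tested, and 0 were called higher and 1 lower in limma, in edgeR and in DESeq2. At an unadjusted p under 0.05 in limma, 0 were higher and 2 lower, where 2547 and 2283 of all 17640 tested genes were. Lower calls made up 4.08% of all tested genes in limma. *Slc25a15* (ENSMUSG00000031482, chromosome 8, 22375551 to 22398597, minus strand), the ornithine carrier that links the cytosolic and matrix steps of the urea cycle and of ornithine metabolism, had 2381, 2239 and 1900 normalized counts in WT libraries against 1503, 1359 and 1231 in hnRNPL-deficient ones. All hnRNPL-deficient libraries were below all WT libraries. The mean fell from 2173 ± 248 to 1364 ± 136 (SD, n = 3), a log2 fold change of -0.67 (SE 0.128, adjusted p = 0.0141). Its intronless relative *Slc25a2* had 46.3 ± 7.94 normalized counts in WT against 30.7 ± 9.39 in hnRNPL-deficient cells (-0.61, adjusted p = 0.271). Per kb, *Slc25a15* made up 91.9% of the summed level of both ornithine carriers in WT against 91.5% in hnRNPL-deficient cells, and the sum was 419.9 ± 46.5 against 264.8 ± 21.7.

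*Slc25a12* and *Slc25a13* carry aspartate out of the matrix in exchange for glutamate, as part of the malate-aspartate shuttle. *Slc25a12*, the highest amino acid carrier per kb in WT (702 normalized counts), had 6078, 4477 and 4914 normalized counts in WT libraries against 4142, 3609 and 4119 in hnRNPL-deficient ones. The groups did not overlap, but WT library 1 stood apart from the other WT libraries. The log2 fold change was -0.37 (SE 0.130, adjusted p = 0.105). *Slc25a13* had 679.7 ± 155 normalized counts in WT against 836.0 ± 124 in hnRNPL-deficient cells (0.31, adjusted p = 0.346). *Slc25a22*, a glutamate carrier, had a log2 fold change of -0.24 (adjusted p = 0.271), and its relative *Slc25a18* had at most 11.2 normalized counts on average in either genotype. *Slc25a38*, which brings glycine in for haem synthesis, was at 1063 ± 89.3 and 1099 ± 15.2 normalized counts (log2 fold change 0.05), and *Slc25a44*, the carrier of branched-chain amino acids, at 1475 ± 34.3 and 1405 ± 134 (-0.07). *Slc25a29*, which carries basic amino acids, was low, at 36.1 ± 17.4 and 49.3 ± 3.67 normalized counts.

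The 4 carriers of iron and glutathione were all tested, and 1 was called lower, where 4.08% of all tested genes were. *Slc25a40* (ENSMUSG00000054099, chromosome 5, 8422850 to 8454797, plus strand), which with *Slc25a39* brings glutathione into mitochondria, had 591.9, 535.2 and 485.6 normalized counts in WT against 311.0, 336.2 and 420.8 in hnRNPL-deficient libraries. The groups did not overlap, and hnRNPL-deficient library 3 lay nearest to WT. The mean fell from 537.6 ± 53.2 to 356.0 ± 57.5 (SD, n = 3), a log2 fold change of -0.60 (SE 0.166, adjusted p = 0.0524). With the 2 count tests included, which ran without hnRNPL-deficient library 2, this call was lost under more settings than that of any other carrier. It did not hold without any library except hnRNPL-deficient library 3 (adjusted p-values 0.111 to 0.140), with libraries scaled to equal totals (log2 fold change -0.55, under the minimum fold), in edgeR (adjusted p = 0.142) and in DESeq2 (log2 fold change -0.55, under the minimum fold). *Slc25a39* was 20.5 times as abundant per kb in WT, at an exon length of 2756 bases against 8386 for *Slc25a40*. It had 3616 ± 478 normalized counts in WT against 2890 ± 595 in hnRNPL-deficient cells (-0.34, adjusted p = 0.238). The mitoferrins, which import iron for haem and iron-sulphur clusters, did not pass the test, with log2 fold changes of -0.16 for *Slc25a37* and 0.15 for *Slc25a28*. The mitoferrin pair summed to 584.3 ± 55.7 normalized counts per kb in WT against 572.5 ± 61.6 in hnRNPL-deficient cells.

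Of the 9 members of the outer membrane or without an assigned substrate here, 6 were tested. Of these 1 was called higher, where 7.28% of all tested genes were. *Slc25a35* (ENSMUSG00000018740, chromosome 11, 68968131 to 68974365, plus strand) had the largest change among the called carriers. It had 147.4, 131.4 and 137.7 normalized counts in WT against 387.7, 307.9 and 348.1 in hnRNPL-deficient libraries. Each hnRNPL-deficient library was more than 2-fold above each WT library. The mean rose from 138.8 ± 8.05 to 347.9 ± 39.9 (SD, n = 3), a log2 fold change of 1.31 (SE 0.173, 95% interval 0.92 to 1.71, adjusted p = 0.00311). Its exons share 1151 bases with those of *Rangrf* on the opposite strand, which had 369.5 normalized counts in WT against 279.1 in hnRNPL-deficient cells (log2 fold change -0.41, adjusted p = 0.162). Reads were counted by strand, so the genes are told apart as far as the library keeps strand. *Slc25a46*, an outer membrane protein of mitochondrial dynamics and the highest of this group per kb, had 4457 ± 730 normalized counts in WT against 4637 ± 450 in hnRNPL-deficient cells (0.06). *Slc25a53* had 4537 ± 763 and 5501 ± 383 (0.29, adjusted p = 0.194), *Slc25a45* had 480.5 ± 48.6 and 568.6 ± 10.9 (0.25, adjusted p = 0.280), and *Slc25a43* and *Slc25a47* were under 53 normalized counts on average in both genotypes.

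No carrier of citrate, dicarboxylates or acylcarnitine and no uncoupling-protein-like carrier was called by limma fitted without a replicate block, by edgeR or by DESeq2, and none of these had an unadjusted p under 0.05. The citrate carrier *Slc25a1*, which exports the citrate used for cytosolic acetyl-CoA, the dicarboxylate carrier *Slc25a10* and the oxoglutarate carrier *Slc25a11* had log2 fold changes of -0.16, -0.18 and -0.18. *Slc25a20*, which brings in acylcarnitines for fatty acid oxidation, had 809.7 ± 99.9 normalized counts in WT against 936.7 ± 118 in hnRNPL-deficient cells (0.21, adjusted p = 0.403). Of the uncoupling-protein-like carriers, *Slc25a30* was the highest at 1555 ± 175 and 1372 ± 64.7 (-0.18, adjusted p = 0.378). *Slc25a27* had 16.6 ± 9.34 and 33.6 ± 12.8 (1.11, SE 0.540, adjusted p = 0.223), a change close in size to that of *Slc25a23* but with an error 3.24 times as large.

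**Figure D3:**
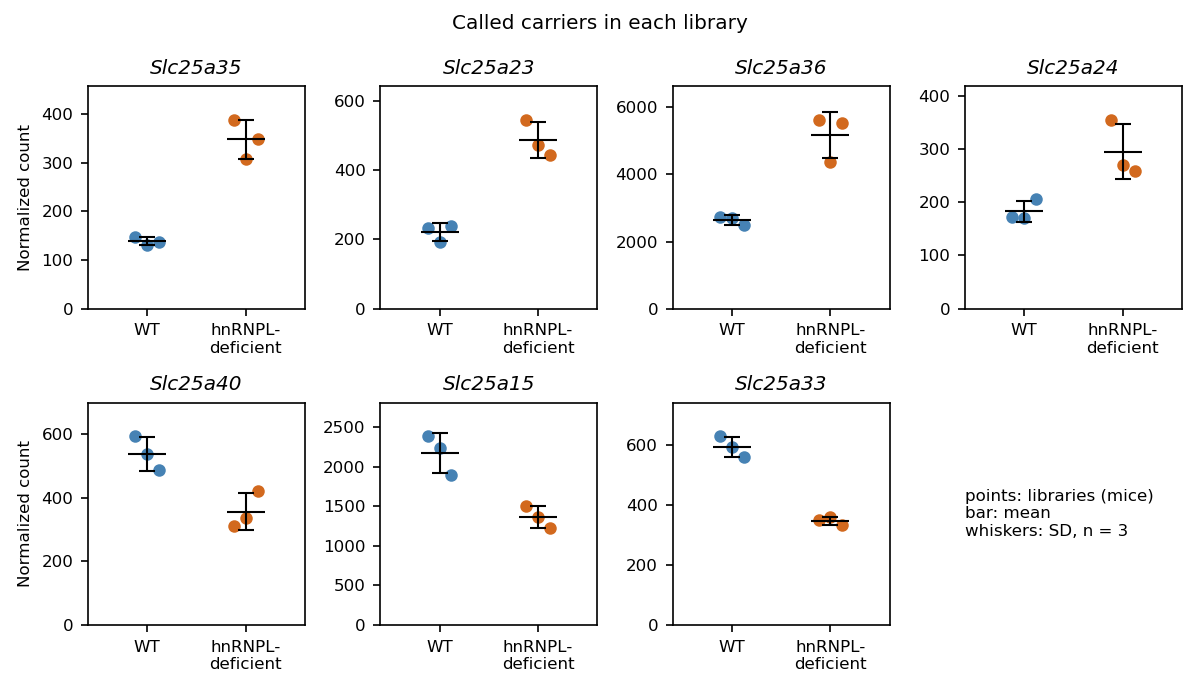
Normalized counts of the 7 called carriers in each library, with the mean and SD of each genotype (n = 3 mice) and each axis starting at 0. The genotypes do not overlap in any panel, and come closest in *Slc25a40*, where the lowest WT library had 485.6 and the highest hnRNPL-deficient library 420.8 normalized counts.

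Because several carriers come as pairs with the same or a similar substrate, the log2 ratio of the members of 7 pairs was compared between genotypes. The difference in ratio was -1.73 for *Slc25a33* over *Slc25a36*, where the ratio went from -2.15 ± 0.0344 to -3.88 ± 0.248 (SD, n = 3). It was -0.69 for *Slc25a12* over *Slc25a13*, 0.55 for *Slc25a4* over *Slc25a5* and 0.31 for *Slc25a28* over *Slc25a37*. In these 4 pairs the genotypes did not overlap, and the two-sided exact permutation p was 0.1, the smallest that 3 against 3 mice can give (0.175 after adjustment over the 7 pairs). Of all tested single genes, 17.7% did not overlap as higher and 16.3% as lower. No such share was computed for ratios of other genes. *Slc25a33* and *Slc25a36* were themselves called in opposite directions, and their ratio rests on the same values as those calls. The other 3 ratios overlapped, with differences of 0.26 for *Slc25a39* over *Slc25a40* (exact permutation p = 0.6), 0.06 for *Slc25a2* over *Slc25a15* (p = 0.9, exact permutation) and 0.38 for *Slc25a18* over *Slc25a22* (p = 0.7, exact permutation). With 3 mice of each genotype, none of these tests could pass 0.05.

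**Figure D4:**
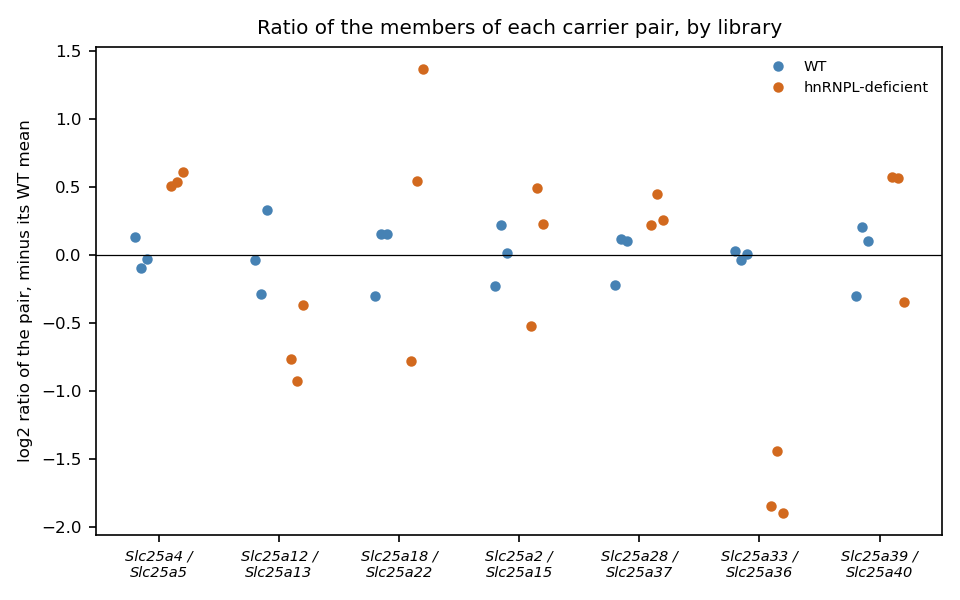
Log2 ratio of the members of 7 carrier pairs in each library, with the WT mean of each pair set to 0 and each point 1 library (WT in blue, hnRNPL-deficient in orange). The hnRNPL-deficient libraries lie between -1.90 and -1.45 for *Slc25a33* over *Slc25a36* and above WT for *Slc25a4* over *Slc25a5*, while for *Slc25a39* over *Slc25a40*, *Slc25a2* over *Slc25a15* and *Slc25a18* over *Slc25a22* the genotypes overlap.

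Other genes of mitochondrial transport were taken from a list of 30, of which 27 were tested. In this list 0 were called higher and 1 lower, or 3.70% against 11.4% of all tested genes, with 2 higher and 2 lower at an unadjusted p under 0.05 in limma and 0 called by edgeR or DESeq2. The gene that fell was *Sfxn5*, which encodes a sideroflexin, a family of inner membrane carriers outside SLC25. It had 372.5, 371.8 and 425.2 normalized counts in WT against 244.3, 256.4 and 275.5 in hnRNPL-deficient libraries. The groups did not overlap. The log2 fold change was -0.59 (SE 0.151, adjusted p = 0.0409), close to the minimum fold, and the gene was not called with a pseudocount of 5, with equal totals, by edgeR or by DESeq2. Both count tests ran without hnRNPL-deficient library 2, and limma without that library did not call the gene either. *Sfxn1*, which carries serine, had a log2 fold change of -0.30 (adjusted p = 0.124). All 9 tested genes of calcium and cation transport had a higher mean in hnRNPL-deficient cells, by 0.07 to 0.40 on the log2 scale, where 8336 of all 17640 tested genes had one. None of the 9 was called, and 2 passed the adjusted p but not the minimum fold, a share near the 18% of all genes that passed it. These were *Ghitm*, an inner membrane calcium and proton exchanger, at 7883 ± 737 normalized counts in WT against 10376 ± 805 in hnRNPL-deficient cells (0.40, adjusted p = 0.0467), and *Micu2*, a gatekeeper of the calcium uniporter, at 2043 ± 86.6 and 2514 ± 118 (0.30, adjusted p = 0.0835). The pore gene *Mcu* had a log2 fold change of 0.16 (adjusted p = 0.416). *Ucp2*, the SLC25 member of this list with the highest count, had 17351 ± 2977 and 20186 ± 3909 (0.21, adjusted p = 0.468), and the pyruvate carrier genes *Mpc1* and *Mpc2* had 0.01 and -0.15. The voltage-dependent anion channels of the outer membrane, *Vdac1*, *Vdac2* and *Vdac3*, had -0.16, -0.23 and 0.02. Of the genes named here, *Ghitm*, *Micu2*, *Sfxn1*, *Mcu*, *Mpc1*, *Mpc2*, *Ucp2* and the *Vdac* genes were picked after their values were seen.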

How the data were processed

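RNA-seq libraries of GFP+ B cells from 3 WT and 3 hnRNPL-deficient mice were grouped by the submitters' labels. Per the labels and the study's methods, the authors made polyA libraries with a stranded kit, trimmed reads with fastp 0.23.1, aligned them to mm10 with STAR 2.7.9a, counted them per gene and strand with featureCounts on GENCODE annotation, and divided counts by DESeq2 1.38.2 size factors. These normalized counts, a signal and not whole counts, were deposited with 1 column for each mouse. Beside them the deposited table has the authors' own comparison of the genotypes, given as log2 fold changes with their errors, a test score and a p-value before and after adjustment, none of which was used.

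The members and gene lists were chosen with earlier results of these data known. limma 3.58.1 (R 4.3.3, mean-variance trend) was fitted to log2(normalized count + 1) of 17640 genes whose mean was 10 or more. Fold changes are differences of mean log2 values on that scale. The added 1 shrinks those of low genes, but they can still exceed the ratio of the means. For *Slc25a27* the fold was 2.16 and the ratio of the means 2.03. Genes were called at a Benjamini-Hochberg adjusted p under 0.1, over all tested genes, and at least 1.5-fold. Every called carrier is given in full, and others as the 5 highest per kb, the highest of each substrate group, both members of pairs, or examples chosen after their values were seen. Alternatives were pseudocounts of 0.5 and 5, other filters and scalings, no trend, a replicate block, each library left out and other thresholds. Pair ratios were tested by exact permutation.

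Within a tolerance of 0.001, 100% of values in each library were whole multiples of the value of 1 read, which gave the depth. A separate automatic test for whole reads did not read the column of hnRNPL-deficient library 2, although its values were whole multiples too. Count tests, decided after seeing the data, were run on the other 5 libraries only. edgeR 4.0.16 (quasi-likelihood, TMM) called 1072 genes higher and 707 lower, and DESeq2 1.42.0 called 1192 and 746. The tests were also run on simulated counts with the same dispersion for every gene and no structure shared between libraries. That run checks the code and not the calls made here. The limit for 0 reads, 3 reads, covers counting error only.

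Exon lengths, coordinates and overlaps come from GENCODE on GRCm38, in an earlier release than the authors used, which matched 47 of 47 carriers by identifier. Promoters come from RefSeq on GRCm38.p6. Splicing was not analysed here, and the values of 1 carrier and 1 marker are not reported here.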

Additional observations from a re-analysis of the deposited data

How the results depend on the processing

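At the stricter threshold (adjusted p under 0.05 and 2-fold) 2 carriers were called higher (*Slc25a23* and *Slc25a35*) and 0 lower. At an unadjusted p under 0.05 in limma, 6 carriers were higher and 5 lower. Of all 17640 tested genes, 2547 were higher and 2283 lower at that p. At the main threshold, edgeR and DESeq2 each called 4 carriers higher and 2 lower. Leaving out each library in turn gave 3 to 4 higher and 2 to 3 lower carriers. *Slc25a35* and *Slc25a23* were called under every alternative run, *Slc25a36*, *Slc25a33* and *Slc25a15* under every one except the stricter threshold, and no called carrier changed direction. *Slc25a24* was lost with quantile normalization (adjusted p = 0.106), and *Slc25a40* with equal totals and in the 2 count tests. The median log2 fold change of the carriers was -0.00279 with equal totals, and -0.094 to -0.00746 with each library left out, the latter without hnRNPL-deficient library 3. The median of all tested genes moved as well, from -0.0272 to 0.0279 with equal totals and to -0.0181 without hnRNPL-deficient library 3. The cause was not tested. Other mitochondrial transport genes were called 0 times with a pseudocount of 5, with equal totals, in edgeR, in DESeq2 and at the stricter threshold, 3 times with no minimum fold, and 0 to 1 times with each library left out, losing *Sfxn5* without WT library 2 or 3 or hnRNPL-deficient library 1 or 2. Over all genes, 1284 higher and 719 lower calls became 610 and 216 at the stricter threshold and 850 and 483 without WT library 3. Same-numbered libraries deviated together with correlations of 0.429, 0.320 and 0.0663, and WT library 3 correlated best with hnRNPL-deficient library 2 (0.305), so the numbers were not taken to pair the mice. The lowest correlations were -0.458, for WT library 1 with hnRNPL-deficient library 2, and -0.404, for WT library 3 with hnRNPL-deficient library 1. Whether libraries of both genotypes share a batch was not tested. With the replicate block, 5 carriers were higher (adding *Slc25a27*) and 3 lower, and 1755 and 1018 of all genes were higher and lower. Low counts limit what can be said of *Slc25a27*, *Slc25a43* and the 7 untested carriers.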

Other observations

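In 4 places on the genome 2 carriers lie within 100 kb of each other, as found after the values were seen. *Slc25a41*, an ATP-Mg/phosphate carrier gene 2057 bases from *Slc25a23*, had 0 reads in all 6 libraries, whereas *Slc25a23* was called higher. *Slc25a54*, 6462 bases from *Slc25a24*, had 0 normalized counts in WT against 0.301 on average in hnRNPL-deficient cells. *Slc25a43* lies 18449 bases from *Slc25a5*, the most abundant carrier, and had 16.5 ± 8.51 normalized counts in WT against 9.68 ± 3.41 in hnRNPL-deficient cells (SD, n = 3). Its groups overlapped, and it did not pass the test (log2 fold change -0.64, adjusted p = 0.434 in limma). *Slc25a29* and *Slc25a47*, 163 bases apart, had log2 fold changes of 0.57 (adjusted p = 0.405) and -0.55 (adjusted p = 0.417) in limma, so neither passed the test.

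*Rnf167*, whose exons share 189 bases with those of *Slc25a11* on the opposite strand, had 1318 normalized counts in WT against 934.0 in hnRNPL-deficient cells (log2 fold change -0.50, adjusted p = 0.0701 in limma, under the minimum fold). *Slc25a11* had 1845 ± 112 and 1631 ± 208 (-0.18, adjusted p = 0.380). Exons of 12 carriers overlap another gene on the opposite strand and those of 2 overlap a gene on the same strand.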
